A study of Mus musculus with 4 samples.

Results

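RNase MRP and RNase P are a pair of nuclear ribonucleoprotein enzymes, each built from 1 catalytic RNA and a set of proteins that they largely share. The 10 genes described here are the RNA components Rmrp (RNase MRP) and Rpph1 (RNase P) and the protein subunit genes Pop1, Pop4, Pop5, Pop7, Rpp25, Rpp30, Rpp38 and Rpp40. They were taken by symbol from 24441 symbols, and each was listed at a single locus. They were chosen with the difference between the genotypes already known, because Rmrp and Rpph1 stood high among the genes that differed. Their values between genotypes are therefore a description and carry no test.

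RNase P cuts the 5′ leader from precursor transfer RNAs. RNase MRP cuts the precursor of ribosomal RNA in the nucleolus, at the spacer between the small-subunit and large-subunit sequences, and mutations of its RNA cause cartilage-hair hypoplasia in people. Both RNAs are made by RNA polymerase III from promoters that lie upstream of the transcribed sequence, and neither carries the poly(A) tail of an mRNA. Mitochondrial transfer RNAs are processed by another enzyme made of protein alone, here called mitochondrial RNase P.

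The RNA came from Langerhans cells, which sample antigen in the epidermis, and was sequenced after the cells had been sorted out of epidermal suspensions from mice aged 4 weeks. There were 2 libraries from wild-type mice (WT 1 and WT 2) and 2 from mice with a CD11c-Cre transgene and floxed Tfam alleles (Tfam cKO 1 and Tfam cKO 2), so that Tfam, which encodes the factor that packages and transcribes mitochondrial DNA, is targeted wherever the CD11c promoter drives Cre. The labels do not say whether the WT mice carried Cre, or how many mice gave each library, so the spread between libraries may be technical in part. In bulk samples a difference in the cells present and a difference in RNA per cell cannot be told apart.

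Values are FPKM, fragments scaled by transcript length and by the mapped total of the library, each with the 95% interval that Cufflinks gave. Where such an interval reaches 2 standard errors to either side, the fragments behind a value can be worked out from its width. Taking WT 1 as 1, the sequencing depth of WT 2 was 1.37, that of Tfam cKO 1 was 0.884 and that of Tfam cKO 2 was 1.56. Cd207, the defining gene of Langerhans cells, was between 1374 and 2098 FPKM in the 4 libraries. Tfam itself was at 3.17 FPKM in WT 1 and between 1.53 and 1.65 FPKM in the other libraries, so WT 2 lay beside the Tfam cKO libraries. A whole-gene value also counts reads outside a deleted exon and checks the deletion only in part. The group names below are those of the labels.

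The sequences of the RNA components are shown because both are far shorter than an mRNA, which bears on how their fragments are turned into FPKM. They are the GENCODE M21 ribozyme transcripts Rmrp-201 and Rpph1-201, of 271 and 319 bases, with a GC content of 64.2% and 67.1%. Rmrp is printed whole and Rpph1 up to base 300. Capitals mark the longest runs of letters that the 2 share, which are 2 runs of 9 bases.
Rmrp: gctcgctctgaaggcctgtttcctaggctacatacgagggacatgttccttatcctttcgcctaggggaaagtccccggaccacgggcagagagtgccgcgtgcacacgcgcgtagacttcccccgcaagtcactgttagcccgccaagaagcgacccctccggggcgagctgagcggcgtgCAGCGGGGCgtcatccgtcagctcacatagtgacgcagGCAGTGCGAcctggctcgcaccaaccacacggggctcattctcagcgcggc
Rpph1: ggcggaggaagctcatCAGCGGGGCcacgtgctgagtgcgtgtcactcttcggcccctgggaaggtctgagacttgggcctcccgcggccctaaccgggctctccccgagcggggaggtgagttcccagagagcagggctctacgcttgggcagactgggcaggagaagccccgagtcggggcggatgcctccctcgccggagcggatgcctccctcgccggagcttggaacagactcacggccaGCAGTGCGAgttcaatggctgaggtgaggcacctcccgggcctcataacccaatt

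The listed gene positions do not match mm10, the build named in the submitters' processing notes, so their genome build is unresolved. In the files' coordinates Rmrp lies on chromosome 4 from 43505657 to 43505931 and Rpph1 on chromosome 14 from 51427122 to 51427446. These spans of 275 and 325 bases equal the RefSeq gene lengths. GENCODE places both on the minus strand, with a protein-coding gene close by on the plus strand. For Rmrp this is Ccdc107, 305 bases away in the files, and for Rpph1 it is Parp2, a DNA damage-sensing polymerase gene, 174 bases away. No other locus of the files overlaps Rmrp or Rpph1. Of the 25-base words of Rmrp-201, 247 in all, none occurs in a GENCODE transcript of another gene symbol. GENCODE also lists a lincRNA gene under the symbol Rmrp on the minus strand, which was left out of this comparison. Of the 295 words of Rpph1-201, 209 occur in a transcript of Ccnb1ip1. In all, 6 other genes share words with it, among them the RNase P RNA-like copies Rprl1, Rprl2 and Rprl3, with at most 31. Ccnb1ip1 and the Rprl copies were listed at 0 in all 4 libraries, so the value of Rpph1 may include reads that another counting would place there.

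Rmrp was low in WT and much higher in both Tfam cKO libraries. WT 1 had 2.46 FPKM and WT 2 had 1.29, whereas Tfam cKO 1 had 24.7 and Tfam cKO 2 had 18.8. The groups did not overlap, and the means were 1.88 ± 0.823 and 21.8 ± 4.19 FPKM (SD, n = 2 each). In WT, 15.9% and 5.14% of the 10910 tested genes lay below it, and in Tfam cKO 78.9% and 73.4% did. On the log2(FPKM + 1) scale, which understates changes from a low level, the difference between the groups was 3.002 (SE 0.23).

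The Rmrp values rest on few reads. The interval of 0 to 7.38 FPKM in WT 1 stands for 1 fragment, as does that of 0 to 3.88 FPKM in WT 2. Tfam cKO 1 and Tfam cKO 2 had 9 fragments each, with intervals of 8.24 to 41.2 and 6.27 to 31.3 FPKM. The interval of WT 1 thus reaches into that of Tfam cKO 2, while the listed values stay apart. Scaled to the depth of WT 1, the fragments numbered 1 and 0.732 in WT against 10.2 and 5.77 in Tfam cKO.

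Rpph1 was also higher in both Tfam cKO libraries, by a smaller factor. WT 1 had 4.20 FPKM and WT 2 had 5.69, whereas Tfam cKO 1 had 22.9 and Tfam cKO 2 had 13.8. The groups did not overlap, with means of 4.94 ± 1.05 and 18.3 ± 6.41 FPKM (SD, n = 2 each), and the difference was 1.67 (SE 0.25) on the log2(FPKM + 1) scale. It was 2.20 between the libraries numbered 1 and 1.15 between those numbered 2. The corresponding values for Rmrp were 2.90 and 3.11. Each of these rests on 1 fragment in its WT library, so they do not show that Rmrp differed more evenly than Rpph1. Rpph1 rested on 4 and 9 fragments in WT against 19 and 17 in Tfam cKO. Its interval of 1.90 to 9.48 FPKM in WT 2 overlaps that of 7.11 to 20.5 FPKM in Tfam cKO 2.

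Of the 8 members that could be tested, 1 passed the limma adjusted threshold of 0.05, and it was Rmrp. Rpph1 did not (limma adjusted p = 0.149). It did with the replicate number as a block (limma adjusted p = 6.5e-08), a fit that leaves 1 residual degree of freedom. Over the other alternatives that kept all 4 libraries its limma adjusted p ran from 0.079 to 0.9998. Rpph1 too was chosen by this contrast, and nothing is read from these values. Over all tested genes 0.0183% were called higher and 0% lower, and nothing is read from the member's count, since this contrast chose it. At an unadjusted p below 0.05, 547 genes were higher and 130 lower.

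**Figure D1:**
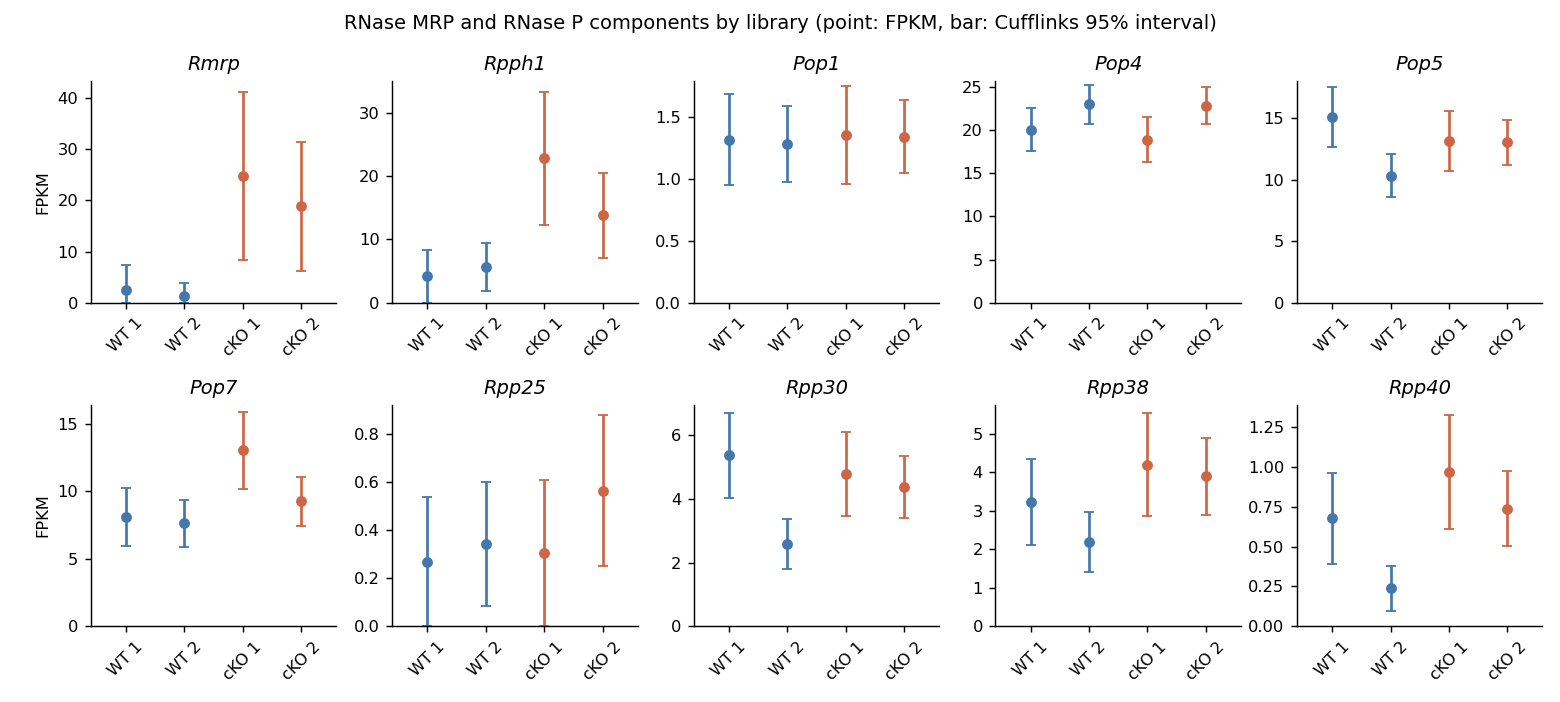
FPKM of the 10 genes in each library, with blue points for WT, orange points for Tfam cKO (cKO) and bars for the Cufflinks 95% interval, on a linear axis from 0 in each panel. Rmrp and Rpph1 are higher in both Tfam cKO libraries, with wide bars, while Pop4 lies between 18.9 and 22.9 FPKM in all 4.

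A fragment was not worth the same FPKM in each library when the locus was short. Across 9135 loci spanning over 10000 bases, 1 fragment, scaled for depth, gave the FPKM of WT 1 in WT 2 and 1.01 times as much in Tfam cKO 2. Across 35 loci of 500 to 800 bases these values were 0.963 and 1.04 times, and across only 14 loci of 350 to 500 bases they were 0.891 and 1.07 times. At Rpph1 they were 0.821 and 1.21, and at Rmrp, the shorter of the 2, they were 0.719 and 1.33. Tfam cKO 1 kept a value between 0.988 and 1.02 at both RNA components. Relative to WT 1, a fragment of either RNA thus counted for less FPKM in WT 2 and for more in Tfam cKO 2.

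Counted in fragments, the differences were smaller than in FPKM and kept their direction. The ratio of the Rmrp group means, Tfam cKO over WT, was 11.6 in FPKM. From 2 fragments in WT against 18 in Tfam cKO, scaled for depth, it was 8.71, with an exact 95% Poisson interval of 2.09 to 77.4. For Rpph1 the ratio was 3.71 in FPKM and 2.68 from 13 and 36 fragments (1.39 to 5.51). These intervals cover counting error only, not the variation between mice. Both RNAs were chosen by this contrast, and the fragments are worked out from the same listed values. Neither the intervals nor the shared direction are therefore a test of a difference. Both Tfam cKO libraries stayed above both WT libraries for both RNAs, Rpph1 having 3.996 and 6.59 depth-scaled fragments in WT against 21.4 and 10.9 in Tfam cKO. In a limma fit on log2 of depth-scaled fragments plus 1, an alternative added after the data were seen, the Rmrp difference was 2.22 (limma adjusted p = 0.9998), so the call on FPKM ended there. It also ended on FPKM without the filter on low values (limma adjusted p = 0.856). Over the alternatives that kept all 4 libraries the limma adjusted p of Rmrp ran from 8.1e-17, with the replicate block, to 0.9998.

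**Figure D2:**
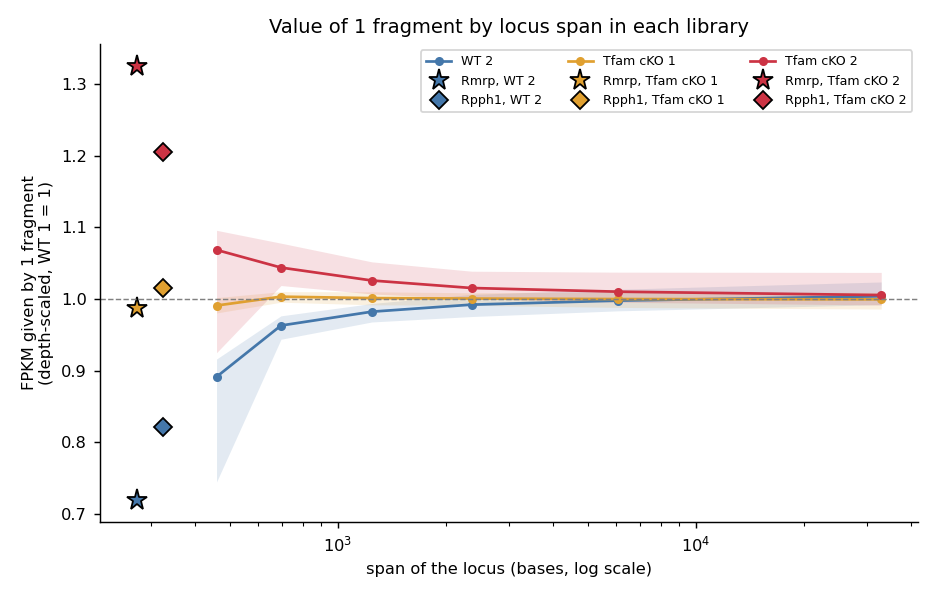
FPKM given by 1 fragment, scaled for depth and relative to WT 1, against the span of the locus on a log axis. Lines join the medians of loci grouped by span, shaded bands are quartiles, and stars and diamonds are Rmrp and Rpph1. The lines meet near 1 at long loci and part at short ones. At 350 to 500 bases, their shortest group, they stand at 0.891 in WT 2 and 1.07 in Tfam cKO 2. The stars of Rmrp, a single locus, stand at 0.719 in WT 2 and 1.33 in Tfam cKO 2.

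The protein subunit genes stood at similar levels in both groups. Summed over all 8, WT 1 had 54.1 FPKM, WT 2 had 47.6, Tfam cKO 1 had 56.7 and Tfam cKO 2 had 56.0. Pop4, whose protein (Rpp29) is a core subunit of both enzymes, had the highest level in every library and made up 33.3% to 48.2% of that sum. It was listed at 20.03 and 22.9 FPKM in WT against 18.9 and 22.8 in Tfam cKO, with the groups overlapping and a log2 difference of −0.05 (SE 0.18). Pop5, another conserved subunit that pairs with Rpp30, was listed at 15.1 and 10.3 FPKM in WT against 13.1 and 13.0 in Tfam cKO. Rpp30 was listed at 5.37 and 2.59 FPKM in WT against 4.79 and 4.38 in Tfam cKO. For both genes the Tfam cKO libraries lay between the WT libraries, WT 1 being the highest and WT 2 the lowest of the 4. Their log2 differences were 0.06 (SE 0.20) and 0.22 (SE 0.26), and both turned to −0.19 without WT 2.

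Pop7 and Rpp38 were modestly higher in both Tfam cKO libraries. Pop7, which encodes Rpp20, a partner of Rpp25 on the RNA, was listed at 8.08 and 7.64 FPKM in WT against 13.0 and 9.26 in Tfam cKO, a log2 difference of 0.44 (SE 0.19). Tfam cKO 1 stood apart there, and Tfam cKO 2 lay close to WT. Rpp38, a subunit that binds kink-turn RNA, was listed at 3.23 and 2.20 FPKM in WT against 4.20 and 3.89 in Tfam cKO, a log2 difference of 0.46 (SE 0.20). Neither passed the test (limma adjusted p = 0.80 for both). The depth-scaled fragment ratios were 1.35 for Pop7 (133 and 186 fragments, exact 95% Poisson interval 1.08 to 1.70) and 1.47 for Rpp38 (65 and 99 fragments, 1.07 to 2.05). The interval included 1 for Pop1 (0.81 to 1.36), Pop4 (0.86 to 1.07) and Pop5 (0.87 to 1.21). It also did for Rpp30 (0.94 to 1.59) and Rpp25 (0.66 to 3.53). All of these intervals cover counting error only. The log2 difference of Pop7 was 0.21 without Tfam cKO 1, and that of Rpp38 was 0.25 without WT 2.

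Pop1, the largest protein of both complexes, hardly varied. It was listed at 1.32 and 1.28 FPKM in WT against 1.36 and 1.34 in Tfam cKO, so the groups did not overlap although the log2 difference was only 0.03, and that turned to −0.056 after rescaling the libraries to equal totals. The 2 remaining subunits were under the minimum mean of 1 FPKM and were not tested. Rpp40 was listed at 0.678 and 0.238 FPKM in WT against 0.967 and 0.736 in Tfam cKO, with 23, 11, 29 and 39 fragments. Its groups did not overlap, but WT 1 lay nearer to Tfam cKO 2 than to WT 2, and the depth-scaled fragment ratio was 1.94 (34 and 68 fragments, exact 95% Poisson interval 1.26 to 3.01). Rpp25 was listed at 0.269 and 0.342 FPKM in WT against 0.304 and 0.564 in Tfam cKO, from 4 to 13 fragments, with the groups overlapping.

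For 4 of the 8 subunits, Pop1, Pop7, Rpp38 and the untested Rpp40, the Tfam cKO values both exceeded the higher WT value, and for 0 they both fell short of the lower one. Over all tested genes this held for 25.4% in the upward and 9.75% in the downward direction. The median log2 difference of the 6 tested subunits was 0.14, against 0.07 for all tested genes. It was −0.03 between the libraries numbered 1 and 0.28 between those numbered 2, against 0.02 and 0.13 for all tested genes. After rescaling to equal totals it was 0.05, against −0.04 for all tested genes.

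The ratio of each RNA to the protein subunits of its own library cannot be moved by scaling a library as a whole. Rmrp was at 0.0455 and 0.0272 times the summed subunit FPKM in WT against 0.436 and 0.336 times in Tfam cKO. Rpph1 was at 0.0777 and 0.120 times in WT against 0.403 and 0.247 times in Tfam cKO. In fragments per 1000 subunit fragments, which leave out the length term, Rmrp stood at 1.56 and 1.26 in WT against 15.5 and 8.75 in Tfam cKO. Rpph1 stood at 6.25 and 11.3 in WT against 32.6 and 16.5 in Tfam cKO. By each measure both RNAs were higher in both Tfam cKO libraries, with Tfam cKO 1 above Tfam cKO 2. In the listed FPKM the balance of the 2 RNAs differed too. Rmrp was at 0.585 and 0.228 times Rpph1 in WT against 1.08 and 1.36 times in Tfam cKO. The WT ratios rest on 1 Rmrp fragment each, beside 4 and 9 of Rpph1. Those of Tfam cKO rest on 9 Rmrp fragments each, beside 19 and 17 of Rpph1. Whether the balance differed beyond counting error was not tested.

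**Figure D3:**
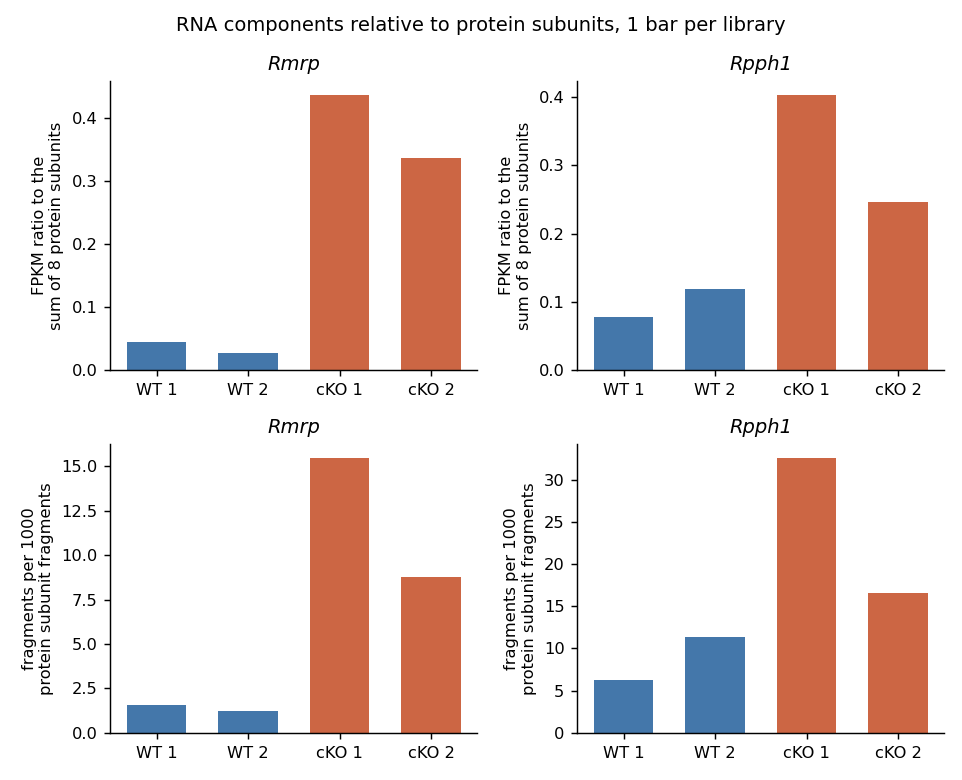
Rmrp (left) and Rpph1 (right) relative to the 8 protein subunits of the same library, as a ratio of FPKM (top) and as fragments per 1000 subunit fragments (bottom), with 1 bar per library and axes from 0. Blue bars are WT and orange bars Tfam cKO (cKO), and in each panel both orange bars exceed both blue bars.

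Of 3 subunit genes outside the 10 none passed the test, and Rpp25l alone had groups that did not overlap. Over all tested genes 0.0183% passed, and 25.4% were higher and 9.75% lower in both Tfam cKO libraries. Rpp21, which is particular to RNase P, was listed at 14.8 and 21.3 FPKM in WT against 16.2 and 23.9 in Tfam cKO, the libraries numbered 2 being higher in each group. Rpp14 was listed at 3.83 and 2.12 FPKM in WT against 3.59 and 2.93 in Tfam cKO. Rpp25l, a paralogue of Rpp25, was listed at 9.57 and 9.39 FPKM in WT against 10.8 and 10.5 in Tfam cKO. Its level was between 18.6 and 35.7 times that of Rpp25 in the 4 libraries, so Rpp25l was by far the more expressed of the pair in these cells. Their log2 differences lay between 0.13 and 0.15 (limma adjusted p from 0.93 to 0.97).

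The 3 genes of the protein-only enzyme of the mitochondrion did not pass the test either. Hsd17b10, its dehydrogenase subunit, was listed at 31.8 and 27.0 FPKM in WT against 30.5 and 31.8 in Tfam cKO. Trmt10c, the methyltransferase subunit, was listed at 11.7 and 7.22 FPKM in WT against 11.4 and 11.1 in Tfam cKO. The nuclease subunit, listed as 1110008L16Rik, was at 1.70 and 1.73 FPKM in WT against 2.37 and 1.90 in Tfam cKO. Of the 3 only this last gene had groups that did not overlap (limma adjusted p from 0.92 to 0.98). Over all tested genes 25.4% were higher and 9.75% lower in both Tfam cKO libraries, and 0.0183% passed the test.

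The genes next to the RNA components on the other strand had no such order. Ccdc107 was listed at 22.9 and 35.3 FPKM in WT against 29.8 and 31.8 in Tfam cKO (log2 difference 0.11, SE 0.22, limma adjusted p = 0.98). Parp2 was listed at 10.5 and 6.48 FPKM in WT against 8.54 and 9.80 in Tfam cKO (log2 difference 0.13, SE 0.22, limma adjusted p = 0.97). For both, the Tfam cKO libraries lay between the WT libraries. On the other side Sit1, 9075 bases from Rmrp, was at 5.58 and 5.17 FPKM in WT against 2.81 and 5.07 in Tfam cKO, so both Tfam cKO values lay below both WT values, that of Tfam cKO 2 narrowly.

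The machinery that makes the RNAs and that acts on the same substrates was examined by 3 lists. Of 37 genes of RNA polymerase III and its factors, 10 were higher and 3 lower in both Tfam cKO libraries, near the 25.4% and 9.75% of all tested genes, with a median log2 difference of 0.06. Polr3g, an alternative polymerase III subunit, had the largest difference, at 2.06 and 2.90 FPKM in WT against 3.83 and 4.22 in Tfam cKO (0.54, SE 0.19, limma adjusted p = 0.69). Its paralogue Polr3gl differed in the other direction (−0.51, SE 0.16). The shared polymerase subunits Polr1d and Polr2e, of highest level, averaged 92.2 ± 7.09 and 43.7 ± 5.65 FPKM in WT against 101.4 ± 3.597 and 44.9 ± 6.80 FPKM under Tfam cKO (SD, n = 2 each).

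Of 36 tested genes of tRNA processing, 9 were higher and 4 lower in both Tfam cKO libraries, again near the 25.4% and 9.75% of all tested genes, with a median of 0.04. Ssb, which encodes the La protein that binds new polymerase III transcripts, averaged 48.4 ± 6.01 FPKM in WT against 44.7 ± 2.62 FPKM in Tfam cKO. Tsen34, a subunit of the tRNA splicing endonuclease, averaged 28.0 ± 1.57 and 34.4 ± 6.29 FPKM (SD, n = 2 each). Trmt61a, a tRNA methyltransferase subunit, differed most, at 2.91 and 1.999 FPKM in WT against 4.68 and 3.61 in Tfam cKO (0.58, SE 0.21, limma adjusted p = 0.69).

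The list of ribosomal RNA processing and the exosome, whose substrates include that of RNase MRP, had a median of 0.23. Of its 74 tested genes 35 were higher and 2 lower in both Tfam cKO libraries, beside 25.4% and 9.75% of all tested genes. The median was 0.12 after rescaling to equal totals, against −0.04 for all tested genes. It was 0.11 between the libraries numbered 1 and 0.36 between those numbered 2, against 0.02 and 0.13 for all tested genes. Without WT 2 it was 0.042. Rrs1, a ribosome assembly factor, differed most, at 16.6 and 10.7 FPKM in WT against 22.1 and 19.9 in Tfam cKO (0.61, SE 0.22, limma adjusted p = 0.68). Npm1, the abundant nucleolar chaperone, averaged 105.7 ± 23.8 and 111.6 ± 10.1 FPKM, and Rrp1 55.2 ± 2.31 and 60.5 ± 4.29 FPKM (SD, n = 2 each). In limma 0 genes of the 3 lists passed the adjusted threshold, beside 0.0183% of all tested genes. An unadjusted p below 0.05 was found for 8 of 37 polymerase III genes, 2 of 36 tRNA processing genes and 13 of 74 ribosomal RNA processing genes, beside 677 of all 10910 tested genes.

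**Figure D4:**
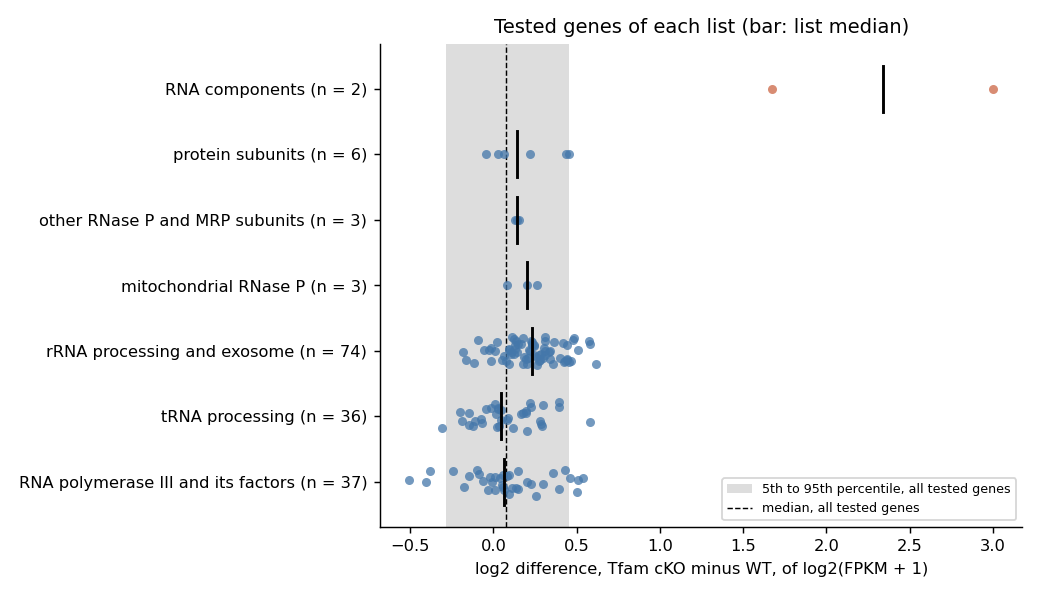
Log2 difference, Tfam cKO minus WT, of log2(FPKM + 1) for the tested genes of each list, with black bars for list medians. The grey band holds the 5th to 95th percentile of all tested genes, −0.28 to 0.45, and the dashed line their median, 0.07. Rmrp and Rpph1, at 3.002 and 1.67, lie far to the right, and the subunit genes lie in or at the edge of the band.

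The precursor of ribosomal RNA and 3 complement genes of the macrophage list were also higher in both Tfam cKO libraries, without passing the test. Rn45s, the locus of that precursor, was listed at 233 and 202 FPKM in WT against 452 and 314 in Tfam cKO. Rn45s was chosen after its values were seen, and its log2 difference was 0.79 (SE 0.23, limma adjusted p = 0.58). The groups did not overlap, and Tfam cKO 1 was above Tfam cKO 2, as for both RNA components. Malat1, a nuclear RNA whose 3′ end is made by RNase P cleavage and which was likewise chosen after its values were seen, was lower in both Tfam cKO libraries, at 275 and 250 FPKM in WT against 146 and 232 in Tfam cKO (limma adjusted p = 0.85). Summed over 8 macrophage markers, the level was 118 and 116 FPKM in WT against 226 and 151 in Tfam cKO. Of these 8 markers 4 were higher and 0 lower in both Tfam cKO libraries, beside 25.4% and 9.75% of all tested genes. The 4 were C1qa, C1qb and C1qc (limma adjusted p from 0.115 to 0.231) and Mrc1. Mrc1 was at no more than 0.130 FPKM and was not tested. Adgre1, which encodes F4/80, overlapped between the groups, at 91.5 and 80.7 FPKM in WT against 97.8 and 76.8 in Tfam cKO. Cd163 and Fcgr1 were at 0 in all libraries and Lyve1 in all but Tfam cKO 2, at 0.0398 FPKM. Keratinocyte markers summed to 12067 and 8032 FPKM in WT against 11515 and 10481 in Tfam cKO, and those of dendritic epidermal T cells to 233 and 252 and to 164 and 232. The part of these levels, and of the FPKM given per fragment, in the values of Rmrp and Rpph1 was not tested.

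Other short structured RNAs could not be compared. Of 1259 symbols for small nucleolar, small nuclear, vault, Y, telomerase and micro RNAs, with a median span of 81 bases, only 8 had a value above 0 in any library. The 5 with a mean of at least 1 FPKM were each above 0 in a single library. Snora70 was listed at 808 FPKM in Tfam cKO 1, which stood for 2 fragments, and Mir8116 at 1047 FPKM in Tfam cKO 2, which stood for 1. Rnu12 in Tfam cKO 1 and Snord22 in Tfam cKO 2 also stood for 1 fragment each, at 161 and 309 FPKM, and Mir142b, listed at 475 FPKM in Tfam cKO 2, for less than 1 whole fragment. At Rnu12, Snord22 and Mir8116 a single fragment thus gave 161 to 1047 FPKM, against 1.29 to 2.75 FPKM per fragment at Rmrp and 0.632 to 1.21 at Rpph1. Terc, the telomerase RNA, had 2 fragments in WT 1, 1 in Tfam cKO 1 and 0 in the other libraries. Rmrp and Rpph1, with 20 and 49 fragments over the 4 libraries, were therefore the only short structured RNAs here with more than 3.

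The genes with the most similar profile over the 4 libraries were ranked among 7192 genes with a mean of at least 5 FPKM, by the Euclidean distance between log2(FPKM + 1) values centred on each gene's mean. With 4 points that separate by group, many genes come close by construction. For Rpph1 the nearest were the complement genes C1qa (distance 0.25), C1qc (0.41) and C1qb (0.53), then Rab7b, a small GTPase of lysosomes (0.60), and Dusp4, a MAP kinase phosphatase (0.61). C1qa was listed at 22.1 and 29.3 FPKM in WT against 88.5 and 55.2 in Tfam cKO, the same order of the 4 libraries as Rpph1. For Rmrp the genes near it included C1qb (1.23), C1qc (1.24), C1qa (1.74) and Rab7b (1.79). Profiles were centred but not scaled, so distances also grow with the size of a gene's difference. The larger distances of Rmrp therefore do not show that it was followed less closely. Rmrp, Rpph1, C1qb, C1qc and Dusp4 had WT means under 5 FPKM and entered the ranking only through Tfam cKO. Rmrp and Rpph1 were at a distance of 1.51 from each other. This put Rpph1 at rank 3 from Rmrp, and Rmrp at rank 1125 from Rpph1.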

How the data were processed

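Libraries were made with a NEBNext Ultra kit from Trizol-extracted total RNA of sorted Langerhans cells, per the labels' protocols, which state neither poly(A) selection nor strand. The authors deposited 1 Cufflinks table of FPKM values with 95% bounds per library, per the file headers. CASAVA, Cufflinks and mm10 are named without versions in the submitters' processing notes. The aligner is not given in the sources used here, nor is the annotation.

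Loci of one symbol were added up. Genes averaging 1 FPKM or more were tested with limma 3.58.1 in R 4.3.3 on log2(FPKM + 1), with genotype as the only term, a mean trend, and Benjamini-Hochberg adjustment over 10910 symbols at 0.05. The fit was tested on simulated data. Fragment numbers are the squared ratio of a value to its standard error. For 74 of 9645 genes with 5 to 1000 fragments they were whole in all libraries within 0.02, and these gave the relative depth. Total depth is unknown, and 2 libraries per group limit the precision.

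Members, lists and tests were chosen with earlier results of these data known. Host genes and Rn45s were taken out of the small RNA list, and Rn45s with Malat1 made a list, after values were seen. Each list names all tested genes up to 5, otherwise the 2 of highest level and the 1 of largest difference. Polr3gl was named besides, as the paralogue of Polr3g, after its value was seen. RNA sequences come from GENCODE M21 (GRCm38). Figures were drawn with matplotlib 3.10.9. One gene that the rule for similar profiles names is not reported here.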

Additional observations from a re-analysis of the deposited data

How the results depend on the processing

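Settings tried were 2 scalings (quantile normalization, equal totals as TPM), 2 filters (absent, or 5 FPKM), 2 pseudocounts (0.1 and 5), 2 variance models (no mean trend, robust), the replicate block, the best locus per symbol, an adjusted threshold of 0.1, each library left out and, added after the data were seen, depth-scaled fragments. The Rmrp difference of 3.002 was 3.52 and 1.96 with pseudocounts of 0.1 and 5 and 2.22 in depth-scaled fragments, and between 2.71 and 3.30 with a library left out. That of Rpph1 was 1.21 with a pseudocount of 5 and between 1.33 and 2.02 with a library left out. The log2 difference of the ratio to the protein subunits stayed between 3.05 and 3.81 for Rmrp and between 1.36 and 2.07 for Rpph1. That of Pop1 turned to −0.056 after rescaling.

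The 2 genes called higher and 0 lower became 145 and 39 with the replicate number as a block, a fit that leaves 1 residual degree of freedom and leans on variances pooled over genes. Across tested genes the deviations of same-numbered libraries correlated with r = 0.26, but with only 2 pairs the labels' numbers do not establish pairing. Higher calls numbered 0 without a filter, 1 with the filter at 5 FPKM, 1 with a pseudocount of 5 and 11 in depth-scaled fragments. Lower calls numbered 1 without a mean trend, 2 with robust moderation and 1 in depth-scaled fragments. Leaving out a library gave 12 to 63 higher and 3 to 40 lower, from fits in which the lone library is taken to vary as its counterpart group does.

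The median of the ribosomal RNA processing list was 0.042 without WT 2 and up to 0.39 with another library left out. That of tRNA processing was −0.037 after quantile normalization and −0.073 after rescaling, and between 0.013 and 0.18 with a library left out. That of RNA polymerase III and its factors was between 0.015 and 0.21 with a library left out. Depth limits Rmrp to 1 fragment in each WT library.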

Other observations

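Replication-dependent histone genes, whose mRNAs end in a stem-loop in place of a poly(A) tail, had both Tfam cKO values above the higher WT value for 17 of 43 tested members and both below the lower one for 0, beside 25.4% and 9.75% of all tested genes, with a median log2 difference of 0.37 against 0.07 for all tested genes. None of the 43 passed the limma adjusted threshold (lowest adjusted p = 0.26), beside 0.0183% of all tested genes. An unadjusted p below 0.05 was found for 14, beside 677 of all 10910 tested genes. The median was 0.33 between the libraries numbered 1 and 0.39 between those numbered 2, against 0.02 and 0.13 for all tested genes. After rescaling to equal totals it was 0.35, against −0.04 for all tested genes. Hist1h2bc, of highest level, was listed at 123 and 132 FPKM in WT against 132 and 206 in Tfam cKO. Hist1h1c was listed at 65.3 and 85.1 FPKM in WT against 87.0 and 106.4 in Tfam cKO. Hist1h3g had the largest difference, at 0.313 and 0 FPKM in WT against 1.605 and 2.27 in Tfam cKO (log2 difference 1.35, SE 0.25). It rested on 1 and 0 fragments in WT against 3.15 and 10.3 in Tfam cKO. Its mean reached the minimum of 1 FPKM only through Tfam cKO, so nothing is read from this difference.

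None of the 6 tested genes of telomerase passed the test, beside 0.0183% of all tested genes. Nop10 and Nhp2 averaged 39.3 ± 0.255 and 45.4 ± 6.25 FPKM in WT against 43.6 ± 4.79 and 44.6 ± 2.51 FPKM under Tfam cKO (SD, n = 2 each). Gar1 differed most, at 20.7 and 10.7 FPKM in WT against 20.9 and 16.8 in Tfam cKO (log2 difference 0.31, SE 0.28, limma adjusted p = 0.92).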
